A study of Mus musculus with 8 samples.

Results

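The effect of losing the DNA methyltransferases (DNMTs) was examined in mouse embryonic stem cells that also lack DAXX. The comparison uses 4 libraries of the 8 in the series, chosen by their labels alone: J1 DAXX KO, a DAXX knockout of the J1 line, and TKO DAXX KO, a DAXX knockout of a line labelled as having 3 DNMTs knocked out. Each line was sequenced once in regular embryonic stem cell medium and once after 72 hours with 2i plus vitamin C, named here "2i". The 2i medium held 1 µM of PD0325901, which inhibits MEK, 3 µM of CHIR99021, which inhibits GSK3b, and 100 µg/ml of vitamin C. DAXX is thus absent from all 4 libraries by label, and the 2 pairs, 1 in each medium, differ in DNMT status. The 4 DAXX-intact libraries, J1 and TKO in the same media, entered the fits and served as the reference for the DNMT effect with DAXX present. The genotype field of J1 DAXX KO reads WT, and its DAXX knockout is given by the titles and descriptions.

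DNMTs add methyl groups to cytosines, and in most cell types this mark keeps endogenous retroviruses silent. DAXX is a chaperone that deposits histone H3.3 together with the chromatin remodeller ATRX, and this complex acts at heterochromatin, including repeats and telomeres. Mouse embryonic stem cells also silence retroviruses through H3K9 trimethylation, so a repeat can be held down by DNA methylation, by histone marks or by both. The series is concerned with how DAXX/ATRX acts on repeats where DNA methylation is missing.

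Library totals in the DAXX-null lines were between 74509228 and 91835977 reads, and levels of families are given relative to that total as RPM, which here is reads per 1000000 library reads. The repeat table lists 17857 long elements in 65 families, and 15744 elements had a read in a DAXX-null library. Reads in these elements made up 11.1% of the J1 DAXX KO regular library, 12.0% of TKO DAXX KO regular, 15.2% of J1 DAXX KO 2i and 8.28% of TKO DAXX KO 2i. The libraries thus differ in the total repeat share in opposite directions in the 2 media. There is 1 library per group, and the fit of all 8 libraries (edgeR's quasi-likelihood test) leaves 3 residual degrees of freedom. Medium is a term of the fit. Its spread is therefore how far the differences between lines, DAXX-intact lines included, disagree between the 2 media. The pairs come from the same 2 lines, and the labels do not say whether a line is 1 clone. How far separate lines of 1 genotype differ is therefore not in the p-values. The assembled transcripts carry no gene names, so transcripts of Daxx, the Dnmt genes and stem cell markers were not analysed here, and genotypes and cell type rest on the labels. In bulk RNA, fewer cells transcribing a repeat and less RNA per cell cannot be told apart.

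Across 44 families with a mean of at least 1 RPM, 4 passed an adjusted p of 0.05 in edgeR (9.09% of those tested). IAPEy-int and MMERGLN-int rose (4.55%), and GSAT_MM and Lx4B fell (4.55%). By class these were 1 of 5 IAP families, 1 of 5 ERV1 families, the satellite and 1 of 19 old LINE1 families, with 0 of 4 ETn, 0 of 3 ERVL and 0 of 6 young LINE1 families. A further 6 had an unadjusted p under 0.05, giving 10 in all. In the 2 pairs, 11 families were higher in TKO DAXX KO in both media, 15 were lower in both, 17 were higher in regular medium and lower in 2i, and 1 was the reverse. DESeq2 called 6 higher and 4 lower. TMM scaling called 3 higher and 3 lower and scaling to LINE1 reads 5 higher and 1 lower, with a median log2 change over the families of −0.31 on library totals, −0.11 under TMM and 0.26 under LINE1 scaling. A fit of the 4 DAXX-null libraries alone, with 1 residual degree of freedom, called 0.

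**Figure D1:**
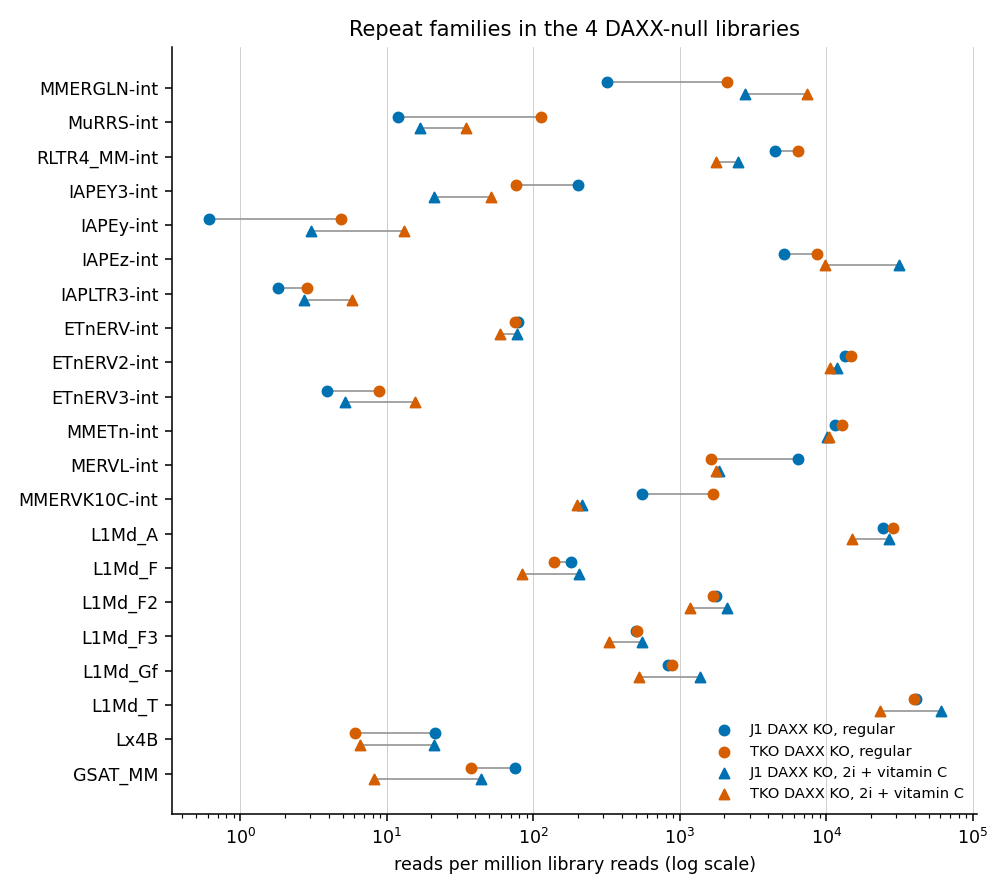
Level of each named repeat family in the 4 DAXX-null libraries, in RPM (depth-scaled reads) on a log scale; circles are regular medium, triangles 2i plus vitamin C, blue J1 DAXX KO and orange TKO DAXX KO, and each point is 1 library. MMERGLN-int is higher in TKO DAXX KO in both media (2098 against 316 RPM and 7356 against 2761 RPM), while IAPEz-int is higher in regular medium and lower in 2i.

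The retroviruses of the ERV1 type were headed by MMERGLN-int, the internal part of a gammaretrovirus-like family. It was at 316 RPM in J1 DAXX KO regular and 2098 RPM in TKO DAXX KO regular, and at 2761 and 7356 RPM in 2i. Both TKO DAXX KO libraries thus lay above the J1 DAXX KO library of their medium, by ratios of 6.63 and 2.66, and J1 DAXX KO in 2i lay above TKO DAXX KO in regular medium. The fitted fold was 3.95 (log2 1.98, SE 0.46, adjusted p 0.0349 in edgeR), and the call held in 8 of 16 alternatives. It was lost without J1 regular (adjusted p 0.0699), J1 2i (0.0717), TKO regular (0.108) or TKO 2i (0.105), and the fold in log2 was 1.38 without J1 DAXX KO regular and 2.77 without J1 DAXX KO 2i. Of its 56 tested elements 55 were higher in each medium, with median log2 ratios of 2.80 and 1.45. Over all 11332 elements tested, 7350 were higher in regular medium and 565 in 2i, with median log2 ratios of 0.12 and −1.16. Its 10 most read copies held 40.2% of the family's reads in J1 DAXX KO regular and 43.1% in TKO DAXX KO regular.

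MuRRS-int, a murine retrovirus-related family, was at 11.8 and 16.7 RPM in J1 DAXX KO in regular medium and 2i and at 112 and 34.4 RPM in TKO DAXX KO. TKO DAXX KO was above both J1 DAXX KO libraries in each medium, with ratios of 9.45 and 2.06. The family test missed the threshold narrowly (fitted fold 4.12, adjusted p 0.0519 in edgeR). It was past the threshold in 6 of 16 alternatives, among them DESeq2, and the fitted log2 change, 2.04 over all libraries, was 1.25 with J1 DAXX KO regular left out and 3.05 with J1 DAXX KO 2i left out. One copy, on mm9 chromosome 4 from 146099758 to 146105436, held 99.8% of the family's reads in J1 DAXX KO regular, so the family is in effect a single locus. Tested as an element, this copy was called (fitted fold 4.13, adjusted p 0.0178), but in 8 of 16 alternatives it was not. The call was lost under TMM (adjusted p 0.0805) and on leaving out TKO DAXX KO regular (0.278), TKO 2i (0.0758), TKO regular (0.103), J1 2i (0.252) or J1 regular (0.272).

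RLTR4_MM-int, the internal part of a murine leukaemia virus-like family, gave a family sum that hid opposite copies. The family was at 4466 and 6370 RPM in regular medium and at 2471 and 1762 RPM in 2i, J1 DAXX KO first (fitted fold 1.11, adjusted p 0.834). In regular medium 30 of its 45 copies were higher in TKO DAXX KO and 15 lower. That split is near the one over all elements, 7350 higher and 3982 lower. Of the 45 copies, 21 were more than 4-fold higher. The quartiles of the 45 log2 ratios were −0.59 and 2.37, against −0.13 and 0.31 over all elements. In 2i 26 copies were higher, against 565 of 11332 over all elements, and 0 were more than 4-fold higher. The copy with most reads, on chromosome 2 from 15942862 to 15950422, went from 77.9 to 20.5 RPKM (RPM per kilobase of element) in regular medium and from 30.9 to 9.30 RPKM in 2i. It held 13.2% of the family's reads in J1 DAXX KO regular and 2.43% in TKO DAXX KO regular. Its fitted fold was 0.279 with an adjusted p of 0.0114 over all elements in edgeR. That call was lost under TMM (adjusted p 0.557) and LINE1 scaling (0.586) and without J1 regular (adjusted p 0.260), J1 2i (0.221), TKO DAXX KO regular (0.238) or TKO DAXX KO 2i (0.114).

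Among the intracisternal A-particle (IAP) families, retrotransposons well known as targets of DNA methylation, the one that passed was IAPEy-int. It was at 0.606 RPM in J1 DAXX KO regular and 4.85 RPM in TKO DAXX KO regular, and at 3.05 and 13.1 RPM in 2i. The ratios were 8.0 and 4.30, the fitted fold was 5.63 (log2 2.49, SE 0.44) and the adjusted p was 0.0232 in edgeR. It passed in 11 of 15 alternatives and missed without TKO regular (adjusted p 0.0554) or TKO 2i (0.0544). The levels are low, and 3 copies were tested, each higher in both media, against 282 of 11332 over all elements. IAPLTR3-int was also higher in both media, at 1.80 and 2.86 RPM in regular medium and 2.71 and 5.8 RPM in 2i (fitted fold 1.86, adjusted p 0.203). RLTR10-int was below the filter, at 0.0883, 0.566, 0.805 and 0.315 RPM in J1 DAXX KO regular and 2i and TKO DAXX KO regular and 2i.

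IAPEz-int, the most abundant IAP family here, went opposite ways in the 2 media. It was at 5130 RPM in J1 DAXX KO regular and 8559 RPM in TKO DAXX KO regular, and at 31233 RPM in J1 DAXX KO 2i and 9704 RPM in TKO DAXX KO 2i. J1 DAXX KO 2i thus stood above the other 3 libraries, and the ratios were 1.67 and 0.311. Of its 805 tested copies 800 were higher in regular medium, against 7350 of 11332 over all elements, and 804 were lower in 2i, against 10767 of 11332. The median log2 ratio of the copies was 0.84 in regular medium and −1.76 in 2i, beside 0.12 and −1.16 over all elements. The fit over both media (fold 0.629, adjusted p 0.473 in edgeR) therefore averages opposite signs. Without J1 DAXX KO 2i the fitted log2 change was 0.64, and without J1 DAXX KO regular it was −1.58, which passed (adjusted p 0.0433). Relative to LINE1 reads of the same libraries the ratios were 1.61 and 0.700. With DAXX present the TKO to J1 ratios were 1.76 and 1.57. IAPEY3-int had the reverse pattern, at 200 and 75.7 RPM in regular medium and 21 and 51.5 RPM in 2i. All 13 of its tested copies were lower in regular medium and higher in 2i, against 283 of 11332 over all elements. Its fitted fold was 0.976 (adjusted p 0.978).

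The other ERVK families were less uniform. MMERVK10C-int, an ERVK family outside the IAP and ETn classes, was at 547 RPM in J1 DAXX KO regular and 1686 RPM in TKO DAXX KO regular, and at 213 and 197 RPM in 2i. In RPM its ratio was 3.08 in regular medium and 0.924 in 2i, and relative to LINE1 reads it was 2.97 and 2.08, so whether 2i shows a difference depends on the scaling. Of its 76 copies 75 were higher in regular medium and 25 in 2i, where 565 of 11332 elements were. The fitted fold was 1.82 (adjusted p 0.355), and the log2 change of 0.86 was −0.065 without TKO DAXX KO regular and 1.57 without TKO DAXX KO 2i, where it passed (adjusted p 0.0142). ETnERV3-int, a small family of early transposons, was at 3.87 and 8.83 RPM in regular medium and 5.15 and 15.6 RPM in 2i, with a fitted fold of 2.70 (adjusted p 0.150). The large early transposon families had ratios near 1: 1.10 and 0.899 for ETnERV2-int, and 1.12 and 1.02 for MMETn-int. ETnERV-int was at 78.6 and 77.6 RPM in J1 DAXX KO and 74.4 and 58.7 RPM in TKO DAXX KO. The levels of the 2 large families were between 10103 and 14692 RPM in the 4 libraries, and the fitted folds of 0.997 and 1.08 had adjusted p of 0.992 and 0.834.

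MERVL-int, an ERVL retrovirus that cleavage-stage embryos and a few cells of a stem cell culture transcribe, was lowest of the 4 DAXX-null libraries in TKO DAXX KO regular. It was at 6417 RPM in J1 DAXX KO regular and 1634 RPM in TKO DAXX KO regular, and at 1842 and 1761 RPM in 2i. J1 DAXX KO regular stood above the other 3, which were close together, and the ratios were 0.255 and 0.956. In regular medium 574 of 575 copies were lower in TKO DAXX KO, against 3982 of 11332 over all elements, and in 2i 384 were, against 10767 of 11332. The fitted fold of 0.617 had an adjusted p of 0.531 in edgeR. Its log2 value of −0.70 was 0.25 without TKO DAXX KO regular and −2.37 without TKO DAXX KO 2i, where it passed (adjusted p 0.00470). Relative to LINE1 reads the ratio was 0.246 in regular medium and 2.15 in 2i, so the direction in 2i depends on the scaling. The DAXX-intact lines had the other order, with MERVL-int at 9185 and 902 RPM in J1 and 14387 and 2722 RPM in TKO.

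LINE1 elements, retrotransposons that copy themselves through RNA and carry their own reverse transcriptase, made up most repeat reads. Together they were at 69226 RPM in J1 DAXX KO regular and 71687 RPM in TKO DAXX KO regular, and at 91762 and 40717 RPM in 2i. The regular pair was close, with a ratio of 1.04, and TKO DAXX KO 2i lay below the other 3 libraries, with a ratio of 0.444. All 6 young LINE1 families were lower in 2i in TKO DAXX KO, with ratios from 0.383 for L1Md_Gf to 0.597 for L1Md_F3. In regular medium their ratios ran from 0.764 for L1Md_F to 1.16 for L1Md_A. No young LINE1 family passed edgeR's test, and the lowest adjusted p was 0.200, for L1Md_F. L1Md_T, the largest, was at 40848 and 39371 RPM in regular medium and 60037 and 23217 RPM in 2i, with a fitted fold of 0.597 (adjusted p 0.355). L1Md_A was at 24440 and 28450 RPM in regular medium and 26667 and 14914 RPM in 2i (fitted fold 0.804, adjusted p 0.568). The difference in total repeat reads in 2i was −69690 RPM, of which L1Md_T made up 52.8%, IAPEz-int 30.9% and L1Md_A 16.9%.

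GSAT_MM, the major satellite of pericentromeric heterochromatin, fell. It was at 74.9 RPM in J1 DAXX KO regular and 37.6 RPM in TKO DAXX KO regular, and at 43.6 and 8.12 RPM in 2i. Both TKO DAXX KO libraries were below both J1 DAXX KO libraries, with ratios of 0.502 and 0.186. The fitted fold was 0.303 (log2 −1.72, SE 0.41, adjusted p 0.0349 in edgeR). It passed in 5 of 16 alternatives and was lost without J1 regular (adjusted p 0.0699), J1 2i (0.0717), J1 DAXX KO 2i (0.111), TKO regular (0.108), TKO 2i (0.112) or TKO DAXX KO 2i (0.0622). All GSAT_MM reads came from 1 listed element on chromosome 9, from 3000002 to 3038419. The RNA was selected for poly(A) tails, and the satellite arrays as a whole were not analysed here. Tested as a single element it had an adjusted p of 0.0610. Relative to LINE1 reads its ratios were 0.485 and 0.420.

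Lx4B, an old LINE1 family, was at 21.4 and 20.9 RPM in J1 DAXX KO and at 6.05 and 6.50 RPM in TKO DAXX KO, in regular medium and 2i. The groups did not overlap, and the ratios were 0.282 and 0.312. The fitted fold was 0.298 (adjusted p 0.0349), past the threshold in 6 of 16 alternatives. It was lost under LINE1 scaling (adjusted p 0.131) and without J1 regular (0.0699), J1 2i (0.0717), J1 DAXX KO 2i (0.113), TKO regular (0.0554) or TKO 2i (0.0544). A single copy, on chromosome 13 from 65503093 to 65508754, held 98.2% of its reads in J1 DAXX KO regular, so this too is 1 locus. It was called as an element (fitted fold 0.277, adjusted p 0.0164), but in 10 of 16 alternatives it was not. The call was lost under TMM (adjusted p 0.247) and LINE1 scaling (0.184) and with J1 regular (0.283), J1 2i (0.279), TKO regular (0.120), TKO 2i (0.106), TKO DAXX KO regular (0.257) or TKO DAXX KO 2i (0.0748) left out. Of the 19 old LINE1 families tested, Lx4B was the one called, and 17 were lower in 2i while 7 were lower in regular medium.

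**Figure D2:**
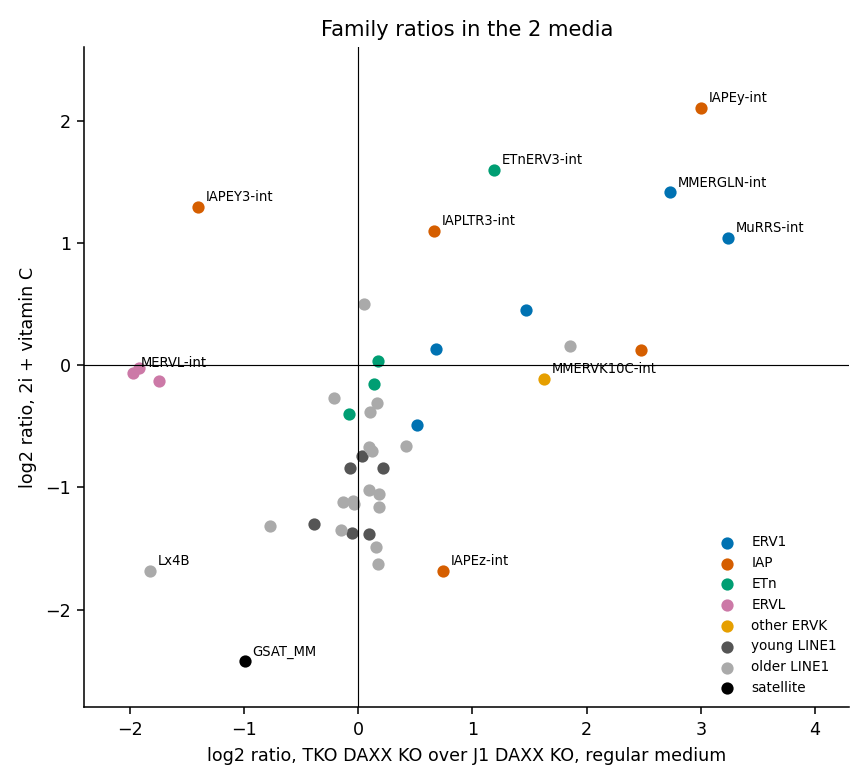
Log2 ratio of TKO DAXX KO over J1 DAXX KO for the 44 tested families, in regular medium (horizontal) and in 2i plus vitamin C (vertical), coloured by repeat class; each point is 1 family from 1 pair of libraries per axis. In 2i 23 of the 25 LINE1 families lie below 0, against 10 in regular medium, MMERGLN-int, IAPEy-int and MuRRS-int lie above 0 on both axes, and IAPEz-int and IAPEY3-int lie in opposite corners.

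Single elements were tested to see whether the families moved as a whole. Of 11332 elements with a mean RPKM of at least 0.1, edgeR called 372 (3.28%), of which 76 were higher (0.671% of those tested) and 296 lower (2.61%), with 1192 at an unadjusted p under 0.05. All 372 called elements had the same sign in both media. Of all 11332 tested elements, 282 were higher in both media and 3699 lower in both. The spread in the fit is the disagreement between media, so the test favours elements with the same sign in both. The shared sign of the called elements is therefore no separate support. The 76 came from 10 families and the 296 from 16. MMERGLN-int supplied 50 of the 76, L1Md_F2 8, RLTR4_MM-int 6 and ETnERV2-int 4. L1Md_T supplied 234 of the 296, L1Md_F2 34, L1Md_F3 7 and L1Md_F 5. Against the 0.671% over all elements, 50 of 56 MMERGLN-int elements were called, and 234 of 4951 L1Md_T elements stand against 2.61%. The elements tested were 941 of L1Md_F2, 316 of L1Md_F3, 76 of L1Md_F, 45 of RLTR4_MM-int and 51 of ETnERV2-int. Reads can match several copies of a family, and how such reads were counted is not given in the sources used here, so elements of a family are not independent.

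The element calls depend on the scaling. The median fitted log2 change over all elements was −0.58 with library totals, 0.011 under TMM and 0.023 under LINE1 scaling. TMM called 0 higher and 0 lower, and LINE1 scaling called 49 higher and 9 lower, of which 41 and 9 were among the 76 and the 296. All 76 kept a higher and all 296 a lower fitted value under both scalings. A scaling shifts all elements of a library together, and the calls chose large changes, so the kept signs are no separate support. Set against that median, rises are larger and falls smaller by 0.58 than the fitted log2 changes given. The count was 4824 without J1 DAXX KO regular, of which 4739 were lower, and 388 without J1 DAXX KO 2i. Leaving out the J1 library gave 23 in regular medium and 27 in 2i, and leaving out the TKO library gave 60 and 58. Leaving out TKO DAXX KO gave 27 in regular medium and 235 in 2i. A fit of the 4 DAXX-null libraries alone called 1 element, and it was lower.

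**Figure D3:**
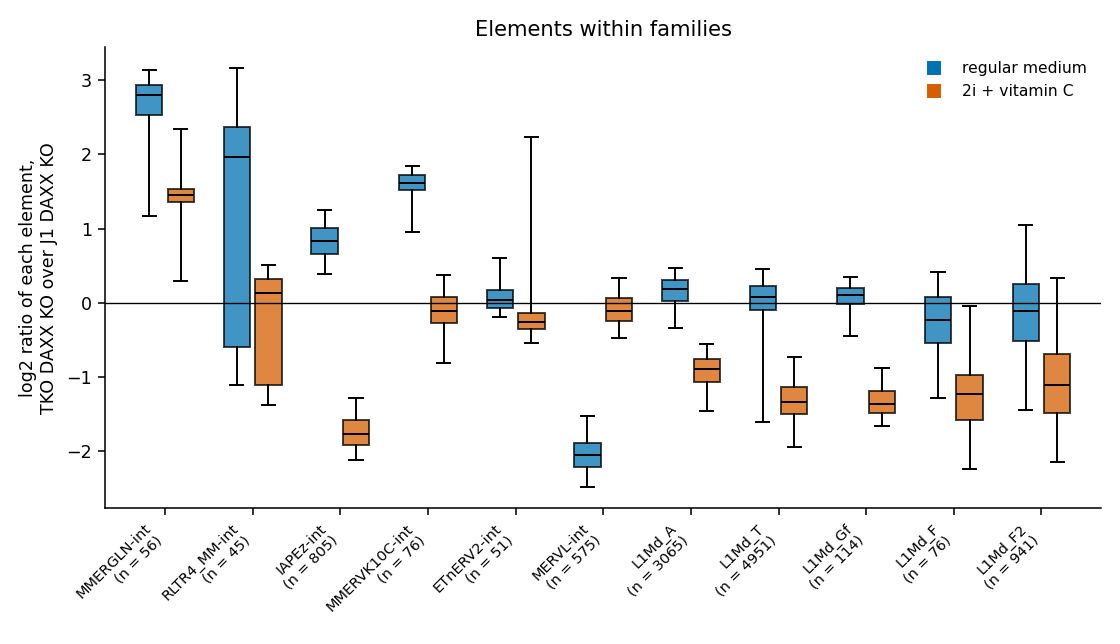
Log2 ratio of TKO DAXX KO over J1 DAXX KO of single elements by family, in regular medium (blue) and 2i plus vitamin C (orange); boxes span the quartiles with the median, whiskers the 5th to 95th percentile, and n is the number of elements tested. IAPEz-int copies sit above 0 in regular medium and below it in 2i, MERVL-int copies sit below 0 in regular medium, and RLTR4_MM-int copies spread on both sides of 0.

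The called L1Md_T copies are described here beside the rest of the family. In the J1 DAXX KO libraries the 234 had median levels of 3.85 RPKM in regular medium and 3.38 RPKM in 2i, and in TKO DAXX KO 1.04 and 0.825 RPKM. The other 4717 copies were at 1.03 and 1.41 RPKM in J1 DAXX KO and at 1.07 and 0.559 RPKM in TKO DAXX KO. The called copies had the higher level in J1 DAXX KO and, in regular medium, nearly the same median as the others in TKO DAXX KO. In the DAXX-intact libraries the 234 were at 2.51 and 1.89 RPKM in J1 and 2.71 and 1.41 RPKM in TKO. Since the calls chose the 234 copies, the levels in the DAXX-null libraries describe them and are not a test.

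The largest rises among called elements came from several retroviral families and from LINE1. An RLTR4_MM-int copy on chromosome 7, from 7023318 to 7030906, was at 0.905 and 4.55 RPKM in J1 DAXX KO in regular medium and 2i and at 47.2 and 8.27 RPKM in TKO DAXX KO. The difference was largest in regular medium, where TKO DAXX KO stood above the other 3 libraries, and without that library the log2 change of 3.85 was 1.16 (adjusted p 0.306). The call (adjusted p 4.69e-06 in edgeR) was not made by DESeq2 (0.0786), nor under TMM (0.197) or LINE1 scaling (0.150). A second copy of that family, on chromosome 10 from 8264765 to 8270369, was at 4.97 and 10.8 RPKM in J1 DAXX KO and at 108 and 18.2 RPKM in TKO DAXX KO. The fitted log2 change, 3.12 over all libraries, was 0.82 with TKO DAXX KO regular left out (adjusted p 0.365), and DESeq2 gave an adjusted p of 0.110. An assembled locus on chromosome 10, from 8268159 to 8271066, overlaps it and was at 1.77, 5.62, 58.7 and 9.89 FPKM in the same order of libraries. Both values come from the same reads.

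An IAP-d-int copy on chromosome 11, from 61205941 to 61211060, had 0 and 60 reads in J1 DAXX KO in regular medium and 2i and 158 and 106 reads in TKO DAXX KO. Against a floor of 3 reads in J1 DAXX KO regular it was at least 56.0-fold higher in regular medium, and it was 2.13 times as high in 2i. Its call (adjusted p 9.19e-05 in edgeR) was lost without TKO DAXX KO regular (0.306) and under DESeq2 (0.257). An RLTR6-int copy on chromosome 4, from 145825958 to 145831705, was at 0.0461 and 0.237 RPKM in J1 DAXX KO. In TKO DAXX KO it was at 1.10 and 1.03 RPKM, without overlap (fitted fold 7.29, adjusted p 2.30e-06 in edgeR). This call, the IAP-d-int call and the next one were lost under TMM, LINE1 scaling and a fit of the 4 DAXX-null libraries. An ETnERV3-int copy on chromosome 13, from 65817005 to 65823326, was at 0.140 and 0.343 RPKM and at 0.824 and 1.92 RPKM, also without overlap (fitted fold 5.67, adjusted p 0.000717). That call was lost without J1 regular (adjusted p 0.0878) or TKO DAXX KO 2i (0.0521). It held 22.8% of its family's reads in J1 DAXX KO regular and 59.0% in TKO DAXX KO regular. The remaining rises were 2 IAPEy-int copies, 2 L1Md_F2 copies and a further RLTR4_MM-int copy, with fitted folds from 6.08 to 9.62.

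The largest falls were LINE1 copies with 1 exception. An L1_Mus3 copy on chromosome 8, from 131677827 to 131683695, had 75 and 38 reads in J1 DAXX KO in regular medium and 2i and 0 in both TKO DAXX KO libraries. With a floor of 3 reads per library it was at most 0.0425 of the J1 DAXX KO level in regular medium and at most 0.0951 in 2i (adjusted p 6.22e-08 in edgeR). TKO itself had 113 and 45 reads there. The L1_Mus3 copy was called in 12 of 15 alternatives, and not under TMM scaling, LINE1 scaling or limma on log2(RPKM + 1). Of the 10 named falls it was the one called from the 4 DAXX-null libraries alone (adjusted p 3.28e-06).

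An L1Md_F copy on chromosome 14, from 89206429 to 89211515, was at 0.417 and 0.512 RPKM in J1 DAXX KO and at 0.0422 and 0.0361 RPKM in TKO DAXX KO, and in the DAXX-intact lines it was higher in TKO in both media. An L1Md_T copy on chromosome 14, from 43645202 to 43651109, was at 8.72 and 6.65 RPKM in J1 DAXX KO and at 0.682 and 0.738 RPKM in TKO DAXX KO. The fall (fitted fold 0.0941, adjusted p 6.03e-06 in edgeR) was no longer called without TKO DAXX KO regular (adjusted p 0.0726). It was also lower in TKO than in J1, at 2.44 and 1.37 against 5.37 and 4.83 RPKM. The exception was an IAPEz-int copy on chromosome 4, from 116865082 to 116871463, at 3.92 and 27.7 RPKM in J1 DAXX KO and 2.29 and 1.86 RPKM in TKO DAXX KO. Its fitted log2 change of −2.52 was −1.05 without J1 DAXX KO 2i (adjusted p 0.952), and its call was also lost without J1 regular (0.272), J1 2i (0.252) or TKO DAXX KO 2i (0.365).

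Of the 10 largest falls, 5 lay on chromosome 14, and 3 of these, of L1_Mus4, L1Md_F2 and L1Md_F, lay between 53 and 55 Mb. That window, chosen after its values were seen, holds 21 tested elements, of which 6 were called lower and 1 higher. In the DAXX-intact lines these L1_Mus4, L1Md_F2 and L1Md_F copies were also lower in TKO than J1 in regular medium (log2 ratios −5.09, −3.06 and −1.51). In 2i they were higher in TKO (0.61, 1.03 and 0.93). Called falls made up 4.95% of tested elements on chromosome 14 and between 0.645% and 4.0% on the other chromosomes, against 2.61% overall.

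The DNMT effect was then set beside that in the DAXX-intact lines, in which TKO and J1 differ. MMERGLN-int was at 230 and 717 RPM in J1 and at 3106 and 10417 RPM in TKO, with a fitted fold of 13.9 against 3.95 without DAXX. IAPEy-int had folds of 6.35 with DAXX and 5.63 without, and both calls were made in edgeR (adjusted p 0.00861 and 0.0232). GSAT_MM had a fold of 1.52 (adjusted p 0.225) with DAXX and 0.303 without, and LINE1 reads together were higher in TKO than J1, with ratios of 2.02 and 1.61 against 1.04 and 0.444 without DAXX.

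The difference itself was tested as an interaction term. edgeR called 0 of the 44 families (0%), and 19 had an unadjusted p under 0.05. DESeq2 called 23, all with a lower fitted DNMT effect in the DAXX-null lines. The median log2 difference over the families was −1.20 on library totals, 0.013 under TMM and 0.21 under LINE1 scaling, so the values below are to be read against it. The fitted log2 difference was −2.32 for GSAT_MM (SE 0.56), −1.82 for MMERGLN-int (SE 0.64) and −1.59 for both L1Md_F and L1Md_T, each with an adjusted p of 0.110. For IAPEy-int it was −0.17 (SE 0.60, adjusted p 0.880), and for MuRRS-int 0.71 (SE 0.74, adjusted p 0.484). Without J1 DAXX KO regular 24 families were called, without TKO DAXX KO regular 12 and without TKO DAXX KO 2i 6, all lower.

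Of single elements, 57 were called in the difference, all lower (0.503%), from 15 families. Called were 20 of 941 tested L1Md_F2 elements and 5 of 76 of L1Md_F. L1Md_T had 10 of 4951 and L1Md_A 7 of 3065, both below the share over all elements. Of the 57, 45 were lower in both DAXX-null pairs and higher in both DAXX-intact pairs, a pattern seen in 3106 of all tested elements. Also called lower within the DAXX-null lines were 26 of the 57. TMM and LINE1 scaling each called 0, and the median log2 difference of −1.41 over all elements was −0.0074 under TMM. DESeq2 called 15. Leaving out J1 regular gave 4, J1 2i 3, TKO regular 6 and TKO 2i 12, and the count was 9097 without J1 DAXX KO regular, 343 without J1 DAXX KO 2i, 456 without TKO DAXX KO regular and 608 without TKO DAXX KO 2i. Of all 11332 tested elements 10380 were higher in both DAXX-intact pairs and 79 lower in both. The 76 elements called higher within the DAXX-null lines were all higher in both, which is near the share over all elements. Of the 296 called lower, 46 were higher in both and 31 lower in both.

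**Figure D4:**
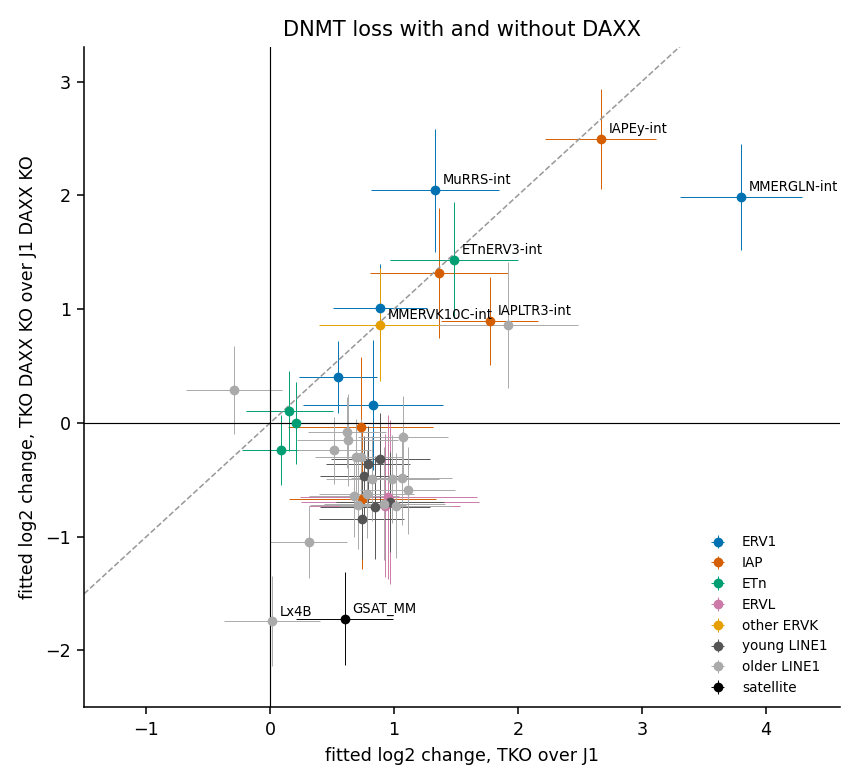
Fitted log2 change with DNMT loss in the DAXX-intact lines (horizontal) and the DAXX-null lines (vertical) for the 44 tested families; bars are standard errors derived from the edgeR test statistic and the dashed line marks equal change. IAPEy-int lies near the line, MMERGLN-int lies below it (1.98 against 3.80), and GSAT_MM and Lx4B lie lowest.

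Assembled transcripts were compared through 9658 loci that had 1 overlapping transcript locus in each of the 8 libraries and a mean of at least 1 FPKM. Loci assembled in only some libraries were left out, so transcripts absent from a line or medium are not covered by the counts and medians below. Limma called 0 (0%) at an adjusted p of 0.05, with 1344 (13.9%) at an unadjusted p under 0.05, of which 879 were higher and 465 lower in TKO DAXX KO. The lowest adjusted p was 0.0679. The median change on the log2(FPKM + 1) scale was 0.076 in regular medium and 0.031 in 2i, 144 loci were more than 2-fold higher in both media and 72 more than 2-fold lower in both. The median element had log2 ratios of 0.12 and −1.16 in the same pairs, but on counts scaled to library totals, so the 2 sets of medians are not on the same scale. With loci matched at 80% overlap, limma called 2 higher and 3 lower. For the difference between DAXX-null and DAXX-intact lines limma called 0, with 547 at an unadjusted p under 0.05.

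The loci with the lowest p each way are given as examples chosen after their values were seen. A locus on chromosome 10, from 77487929 to 77506411, was at 1.78 and 2.75 FPKM in J1 DAXX KO in regular medium and 2i and at 12.3 and 28.4 FPKM in TKO DAXX KO. A locus on chromosome 9, from 110760142 to 110767132, was at 2.19 and 3.64 FPKM and at 25.6 and 34.0 FPKM. The groups did not overlap in either, and both also had the higher level in TKO among the DAXX-intact lines. Of the lower loci, 1 on chromosome 10 from 56096923 to 56110231 was at 138 and 26.6 FPKM in J1 DAXX KO and at 18.4 and 2.16 FPKM in TKO DAXX KO. Another, on chromosome 6 from 4697143 to 4710519, was at 246 and 63.4 FPKM and at 32.3 and 2.91 FPKM. All 4 had an adjusted p of 0.0679 in limma. With DAXX present, this chromosome 6 locus was higher in TKO than J1 in both media, at 313 and 50.8 against 172 and 13.6 FPKM. The lower chromosome 10 locus was at 59.0 and 11.7 FPKM in TKO and 60.8 and 5.46 FPKM in J1. Also on chromosome 10, a locus from 24492900 to 24556122 was at 75.8 and 53.4 FPKM in J1 DAXX KO and at 11.2 and 7.81 FPKM in TKO DAXX KO. A locus on chromosome 6, from 34870881 to 34889423, was at 1.54 and 22.1 FPKM in J1 DAXX KO and at 59.2 and 215 FPKM in TKO DAXX KO (adjusted p 0.0864), while in the DAXX-intact lines it was lower in TKO in both media.

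Matched loci overlapped 573 of the 11332 tested elements (5.06%). Of the 76 elements called higher 4 did (5.26%) and of the 296 called lower 10 (3.38%), shares near that over all elements. The 4 loci with an element called higher were all higher in both media, as were 32.4% of all loci. Among them, an L1Md_F2 copy on the X chromosome lay in a locus from 54662240 to 54741914 that was at 1.32 and 10.1 FPKM in J1 DAXX KO and at 52.7 and 67.8 FPKM in TKO DAXX KO. This locus had a fitted log2 change of 3.58 with an adjusted p of 0.121. Of the 10 loci with an element called lower, 2 were lower in both media, against 24.9% of all loci, and 4 were higher in both. The median fitted log2 change of the 10 loci was 0.24.

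**Figure D5:**
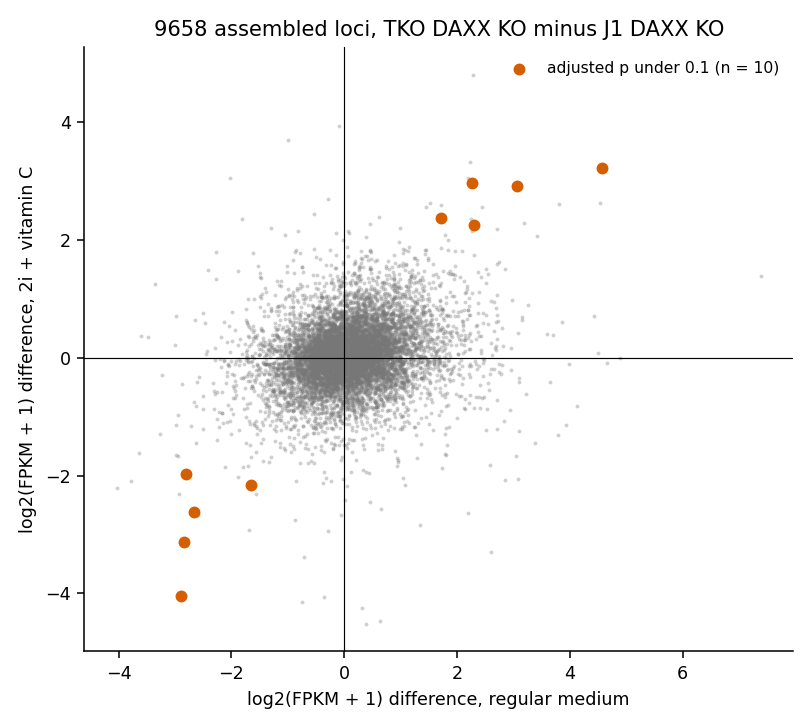
Difference in log2(FPKM + 1) between TKO DAXX KO and J1 DAXX KO for 9658 assembled loci, in regular medium (horizontal) and 2i plus vitamin C (vertical); orange points are the 10 loci with an adjusted p under 0.1 in limma. The cloud, which holds only loci assembled in all 8 libraries, centres close to 0 on both axes, at 0.076 and 0.031.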

How the data were processed

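Cytoplasmic RNA captured on oligo-dT was sequenced with dUTP in the second strand, per the labels' protocols. The submitters' processing notes name mm9, Bowtie2 2.2.4, TopHat, Cuffdiff and Cufflinks, with no role or order. The authors' repeat table gives counts and RPKM per element, per the file headers, and the transcript files FPKM of loci assembled per library by the authors. Not given in the sources used here are the counter, its use of strand, its treatment of multi-mapping reads and whether positions count from 0 or 1. Library totals were recovered from counts and RPKM. Family sums and elements were tested with edgeR 4.0.16 (R 4.3.3) on these totals, with DAXX, DNMT, their interaction and medium as terms, and loci with limma 3.58.1 on log2(FPKM + 1), which understates folds of low loci. DESeq2 1.42.0, limma, TMM and LINE1 scaling, other filters and pseudocounts and the omission of each library were alternatives. P-values are two-sided, with Benjamini-Hochberg adjustment. Element log2 ratios use counts plus 0.5. The SE given for edgeR is the size of the log2 change over the square root of the F statistic of its test. Loci overlapped reciprocally by at least 50% (9719 of 56568 groups). Named families were those called, those with at least 1% of repeat reads in a DAXX-null library and a list of retroviral and LINE1 families, and RLTR10-int of that list was below the filter. Named elements were the 10 largest changes each way among those called, plus the most read copy of a family. The members and lists were chosen with earlier results of these data known. The test code was run on simulated counts and FPKM with known changes. The simulation had no medium effect and no dependence between elements, so it does not bear on the calls here. Intervals and floors cover counting error only. Gene names and sequences were not used here, because the reference at hand is of another build.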

Additional observations from a re-analysis of the deposited data

Results flagged for a closer look

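Among named families, 5 were lower with DNMT loss in both DAXX-null pairs and higher in both DAXX-intact pairs. The pattern is not particular to them. Of the 44 tested families 15 were lower in both DAXX-null pairs. Among these, the unnamed ERVL-B4-int, MERVL_2A-int, L1_Mus2, L1_Mus4, Lx2, Lx2A1, Lx2B and Lx3C were also higher in both DAXX-intact pairs. Their fitted log2 differences in edgeR, DAXX-null minus DAXX-intact, were −2.32 for GSAT_MM, −1.66 for MERVL-int, −1.59 for L1Md_F, −1.59 for L1Md_T and −1.23 for L1Md_F2. The median difference over the 44 families was −1.20, and 0.013 under TMM scaling. None of the 5 passed the interaction test in edgeR, with adjusted p of 0.110 for GSAT_MM, L1Md_F, L1Md_T and L1Md_F2 and 0.229 for MERVL-int.

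The interaction test did call 57 elements. Among the 10 largest falls, the fitted log2 differences were −8.18 for the L1_Mus3 copy on chromosome 8 (0 reads in both TKO DAXX KO libraries), −5.07 for the L1Md_F copy on chromosome 14, −3.97 and −3.77 for L1Md_F2 copies on chromosomes 17 and 16, −3.45 for the IAPEz-int copy on chromosome 4 and −3.20 for an L1Md_F3 copy on chromosome 1. Their adjusted p in edgeR ran from 9.84e-10 to 0.0196. That of the L1_Mus3 copy is fitted to counts of 0 and is no bound.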

How the results depend on the processing

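Of families called for DNMT loss in the DAXX-null lines, 4 on library totals, the count was 10 with DESeq2, 0 with limma on log2(RPKM + 1), 1 with no filter, 0 with a 10 times stricter filter and 0 from the 4 DAXX-null libraries alone. It ran from 0 to 10 with 1 library left out. For the difference from the DAXX-intact lines, 0 families became 23 with DESeq2 and ran from 0 to 24 with 1 library left out. The 372 elements became 0 under TMM scaling, 58 under LINE1 scaling and 1 from the 4 libraries, and ran from 23 to 4824 with 1 library left out. The 57 elements of the difference became 0 under TMM, 0 under LINE1 scaling, 15 with DESeq2, 1 with limma on log2(RPKM + 1), 171 with no filter and 0 with the stricter filter, and ran from 3 to 9097 with 1 library left out. The 0 loci became 5 at 80% overlap. The cause of these moves was not tested, apart from the fewer libraries or features that some settings hold.

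Signs that reversed were of families not called on library totals. Under LINE1 scaling the log2 change was 0.028 for MERVL-int, 0.29 for ETnERV-int, 0.52 for ETnERV2-int, 0.46 for IAPEY3-int, 0.013 for IAPEz-int, 0.25 for L1Md_A, 0.10 for L1Md_F2 and 0.20 for L1Md_F3, and under TMM 0.16 for ETnERV2-int and 0.048 for IAPEY3-int. With 1 library left out it ran from −0.95 to 0.86 for RLTR4_MM-int, −2.37 to 0.25 for MERVL-int, −0.19 to 0.16 for ETnERV2-int, −0.020 to 0.22 for MMETn-int, −1.05 to 0.89 for IAPEY3-int, −1.58 to 0.64 for IAPEz-int, −0.065 to 1.57 for MMERVK10C-int and −0.67 to 0.072 for L1Md_A.

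No paired analysis by replicate number was possible because each group holds 1 library. The pairs within a medium are paired by the medium term, in the fit of 8 libraries and in that of the 4 DAXX-null libraries. Where a library is left out, its lone partner is assumed to vary like the other groups. The floor of 3 reads used for counts of 0 is between 0.0303 and 0.0445 RPM in these libraries.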

Other observations

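Assembled loci on chromosome 8 had lower medians than those of the other chromosomes in the DAXX-null pairs. The median log2(FPKM + 1) difference of 549 loci there was −0.080 in regular medium and −0.18 in 2i, beside 0.076 and 0.031 over all loci. It was also below 0 in the DAXX-intact pairs, at −0.15 and −0.20, beside −0.0060 and −0.037 over all loci. The 532 tested repeat elements on chromosome 8 had median log2 ratios of 0.12 and −1.18, beside 0.12 and −1.16 over all elements.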
